A study of Mus musculus with 24 samples.

Results

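Gene expression was compared between *Baf250a* KD myoblasts and scrambled shRNA control (scr) myoblasts, both grown without added metal. Samples were chosen by their titles, which name the cell line and the absence of treatment, and this gave 4 of the 24 RNA-seq libraries of the series, 2 for each line. The cells were C2C12, an established mouse myoblast line, according to the study's methods, although the sample labels call them primary mouse myoblasts and name Lipofectamine for the knockdown. By the methods both lines carried a lentiviral shRNA and were kept as puromycin-selected populations, the *Baf250a* KD line with an shRNA against *Arid1a*, the gene that encodes Baf250a, and the scr line with a control shRNA. Selection, virus and hairpin expression were therefore shared by both lines. The sources used here do not say whether the replicates of a line came from separate transductions, so a difference between the lines cannot be told apart from a difference between selected populations of cells. The methods name 2 independent biological replicates per condition, and the p-values measure the spread between these.

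Baf250a (ARID1A) is the large DNA-binding subunit of cBAF, the most abundant form of the SWI/SNF chromatin remodelers. These complexes use ATP to slide or evict nucleosomes, and cBAF acts mainly at enhancers, where it keeps DNA accessible to lineage transcription factors. PBAF carries Baf200 (*Arid2*) in its place, together with Baf180 (*Pbrm1*), while ncBAF lacks these subunits and carries Brd9. In the muscle lineage SWI/SNF enzymes work with MyoD to open muscle genes, and ARID1A is known in several tissues as a tumour suppressor and as a regulator of the cell cycle.

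A treatment tag in the sample labels gives Zn for both untreated *Baf250a* KD libraries, in conflict with their titles. The zinc-induced metallothionein *Mt1* was at 273 and 261 CPM (counts scaled to a common library size) in the 2 libraries titled untreated *Baf250a* KD and at 496 and 607 CPM in the 2 titled *Baf250a* KD with Zn, on the scale of all 24 libraries. In scr cells it was at 55.2 and 65.1 CPM without metal and 312 and 284 CPM with Zn, so for *Mt1* in both lines the libraries titled untreated lay below those titled Zn. The zinc exporter *Slc30a1* overlapped in the KD line, at 25.5 to 29.4 CPM untreated and 25.3 to 49.4 CPM with Zn. In scr cells it did not, at 10.8 to 11.4 and 27.0 to 29.9 CPM. A Zn library of the KD line held only 495778 counts. The total count was 25700122 and 21041943 in the KD libraries and 16520069 and 23054964 in the scr libraries. The scr libraries stood apart in ribosomal RNA. Genes whose reads overlap ribosomal RNA took 4.81% and 1.72% of their counts, against 0.0871% to 1.13% in the other 22 libraries. The log2 fold change between the lines also correlated with the GC content of genes (Spearman rho -0.28 across 14863 genes, which are not independent replicates) and with transcript length (rho 0.20). Counts are therefore also given below after an adjustment for GC content and length wherever it changed them by more than 1.5 times or turned their direction.

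The KD was directed at *Arid1a* by shRNAs of which the study lists 2 without stating which the sequenced line carries. They are shown here because they place the knockdown on the transcript. Capitals mark the whole 21-base target.
Baf250A shRNA1: CTTTATAGTATGGCGAGTTAA
Baf250A shRNA2: CCTAGGCAGCCTAACTATAAT
scr shRNA: CAACAAGATGAAGAGCACCAA
The target of shRNA1 lies at chr4:133679414-133679434 (GRCm38, minus strand), in exon 20 of 20 of *Arid1a* and within its 3′ UTR, and matched 2 annotated transcripts. The target of shRNA2 lies at chr4:133694042-133694062, in the coding sequence of exon 8 of 20, and matched 4 transcripts of the same gene. The scr target matched 0 annotated mouse transcripts in either orientation.

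In brackets after CPM values stand the log2 fold change of *Baf250a* KD over scr, its standard error (SE) and, for some genes, the adjusted p. *Arid1a* was at 97.5 and 96.4 CPM in the KD and 276 and 284 CPM in the scr libraries. Both KD libraries were lower than both scr libraries, at 34.6% of the scr mean, with the test passed (-1.53, SE 0.10, edgeR adjusted p = 5.31e-08). Its paralog *Arid1b*, the alternative DNA-binding subunit of cBAF, was at 151 and 155 CPM in the KD and 139 and 129 CPM in the scr libraries and did not pass the test (0.19, SE 0.10). Of the 4 cBAF subunit genes tested, 3 fell and 0 rose. *Dpf2*, a reader of histone acetylation, was at 81.7 and 75.3 CPM in the KD and 103 and 101 CPM in the scr libraries (-0.38, SE 0.10). Its neuronal relative *Dpf1* was at 3.81 and 1.88 CPM in the KD and 6.91 and 6.83 CPM in the scr libraries (-1.25, SE 0.28).

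The ATPase *Smarca4* was at 357 and 344 CPM in the KD and 384 and 393 CPM in the scr libraries and did not pass the test (-0.15, SE 0.10). The alternative ATPase *Smarca2* was at 21.8 and 19.4 CPM in the KD and 5.23 and 3.26 CPM in the scr libraries (2.31, SE 0.20, edgeR adjusted p = 8.67e-07). Both KD libraries lay above both scr libraries for *Smarca2* and below both for *Smarca4*, there by less than the test could call. Shared subunits moved by less. *Actl6a*, an actin-related subunit of progenitor cells, was at 50.5 and 52 CPM in the KD and 101 and 113 CPM in the scr libraries (-1.06, SE 0.11). *Smarcd3*, the subunit that joins MyoD in muscle, was at 40.7 and 38.2 CPM in the KD and 69.1 and 69.7 CPM in the scr libraries (-0.81, SE 0.11). Over the 15 ATPase and shared subunit genes, 2 rose (*Smarca2* and *Smarcd1*) and 5 fell (with *Smarcb1*, *Bcl7a* and *Bcl7c* besides those given), and 2 and 11 after adjustment for GC content and length. *Pbrm1* was at 199 and 218 CPM in the KD and 139 and 97.2 CPM in the scr libraries (0.82, SE 0.14). *Brd9* was at 38.6 and 37.2 CPM in the KD and 26.6 and 31.6 CPM in the scr libraries (0.38, SE 0.12). Neither passed after that adjustment. Of the 4 PBAF genes 2 rose (*Pbrm1* and *Arid2*) and 1 fell (*Phf10*), but 0 rose and 2 fell after that adjustment, so their direction depends on it. Of the 3 ncBAF genes *Brd9* and *Bicral* rose, and 0 rose and 1 fell after the adjustment.

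Of 14971 genes tested, 8647 (57.8%) were differentially expressed (DEGs, edgeR quasi-likelihood test, Benjamini-Hochberg adjusted p under 0.05, no minimum fold). Of these, 4327 (28.9% of the genes tested) were higher and 4320 (28.9%) lower in *Baf250a* KD cells. Counts of rises and falls in the gene lists stand against these 28.9% in each direction. The median log2 fold change over all genes was 0.0030, and that of the DEGs was 0.84 in size. Large differences were more often rises: 2192 DEGs were at least 2-fold higher and 1356 at least 2-fold lower, 559 and 163 were at least 8-fold, and 111 and 10 at least 64-fold. The groups did not overlap for 11972 genes (80%), so with 2 libraries a side a gene without overlap is the usual case. After adjustment for GC content and length 3398 genes were higher and 5713 lower, so that 37.3% of the DEGs were higher, and the median over all genes moved by -0.15. A plot of every gene by its mean level shows how far the largest changes reached.

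**Figure D1:**
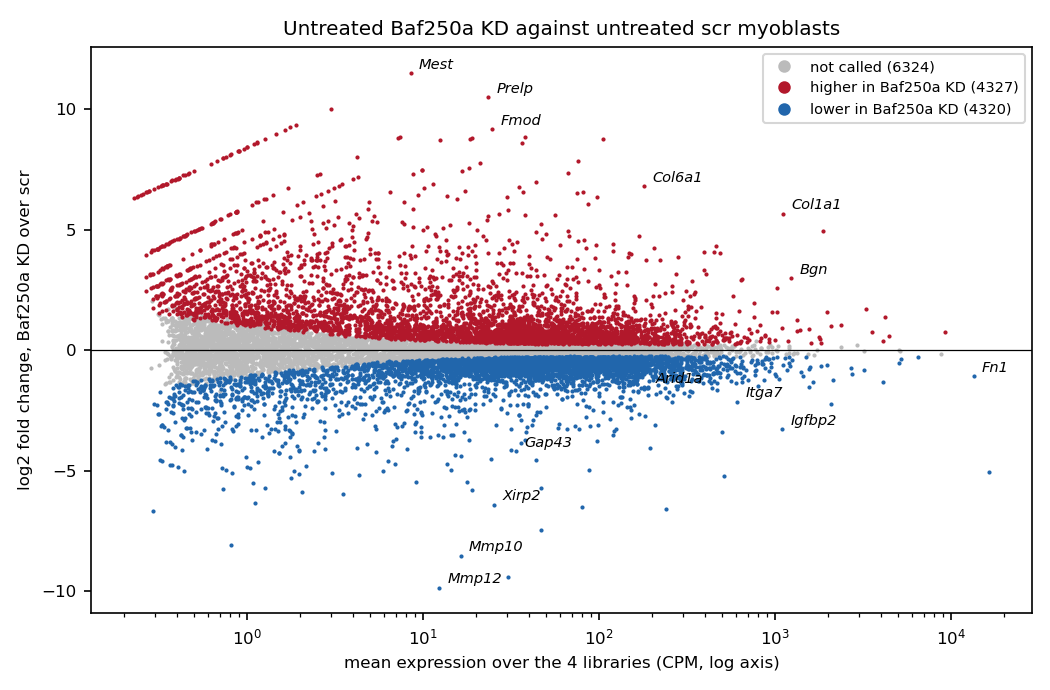
Log2 fold change of *Baf250a* KD over scr (y axis) against the mean CPM of the 4 untreated libraries (x axis, log scale), 1 point per gene tested, red for the 4327 DEGs that were higher, blue for the 4320 that were lower and grey for the rest. Named genes are those of the text. The slanted rows of points at the upper left are genes with 0 to a few counts in scr cells.

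Genes of the extracellular matrix made up much of the largest rises. The matrix is the network of collagens, proteoglycans and glycoproteins that cells secrete around themselves, and in muscle it is made mostly by fibroblasts of the connective tissue, with a share from the muscle cells. Type I collagen, the main fibre of tendon, bone and skin, was measured by both of its chains. *Col1a1* was at 2163 and 2207 CPM in the KD and 42.6 and 43 CPM in the scr libraries (5.67, SE 0.10, edgeR adjusted p = 1.23e-11). *Col1a2* was at 1754 and 1759.8 CPM in the KD and 273 and 313 CPM in the scr libraries (2.58, SE 0.10). The KD libraries agreed closely for both chains and lay far above the scr libraries. *Col3a1*, the fibre collagen of elastic tissues, was at 2872 and 3039 CPM in the KD and 943 and 1042 CPM in the scr libraries (1.57, SE 0.10). *Col11a1*, which sets the width of cartilage fibres, was at 40.3 and 43.1 CPM in the KD and 0.187 and 0.181 CPM in the scr libraries (7.78, SE 0.46). *Col2a1*, the cartilage collagen, had 1783 counts in the KD libraries and 3 in the scr libraries, a ratio of 470.0 (95% counting interval 161 to 2281). In all, 10 of the 11 fibrillar collagen genes tested rose and 0 fell, against 28.9% of all genes in each direction, with a median log2 fold change of 1.60.

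Of 21 other collagen genes 13 rose and 3 fell (median 1.30). The 2 chains of type VI collagen, the beaded filament that anchors muscle fibres to their surroundings, were the clearest. *Col6a1* was at 352 and 358 CPM in the KD and 2.68 and 3.48 CPM in the scr libraries (6.83, SE 0.15). *Col6a2* was at 211 and 208 CPM in the KD and 0.747 and 0.271 CPM in the scr libraries (8.77, SE 0.35). Both were close to absent from scr cells and were abundant in both KD libraries. *Col4a2*, a basement membrane chain, differed much less, at 502 and 487 CPM in the KD and 361 and 418 CPM in the scr libraries (0.34, SE 0.10). The falling members were *Col7a1*, *Col16a1* and *Col23a1*. *Col7a1*, which forms the anchoring fibrils of skin, was at 1.55 and 1.70 CPM in the KD and 8.59 and 9.81 CPM in the scr libraries (-2.51, SE 0.23). *Col16a1* was at 13.5 and 15.5 CPM in the KD and 25.3 and 31.5 CPM in the scr libraries (-0.98, SE 0.15). Collagens therefore did not move as 1 block, since basement membrane and anchoring members were near the scr level or below it.

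Enzymes that fold, trim and crosslink collagen were divided, 9 of 19 rising and 3 falling. *Lox*, the oxidase that crosslinks collagen and elastin, was at 1129.5 and 1169.5 CPM in the KD and 159 and 134 CPM in the scr libraries (2.97, SE 0.11). *Adamts2*, which removes the amino propeptide of procollagen, was at 88.2 and 82 CPM in the KD and 2.55 and 3.03 CPM in the scr libraries (4.91, SE 0.16). The prolyl hydroxylase *P4ha3* was at 35.1 and 36.2 CPM in the KD and 2.05 and 2.03 CPM in the scr libraries (4.12, SE 0.18). These 3 genes were higher in both KD libraries. In the other direction, *Loxl2* was at 15.5 and 14.6 CPM in the KD and 49.6 and 59.7 CPM in the scr libraries (-1.86, SE 0.13). *Adamts14* was at 28.6 and 25.9 CPM in the KD and 105 and 104 CPM in the scr libraries (-1.94, SE 0.11). The procollagen enhancer *Pcolce2* was at 20.05 and 18.5 CPM in the KD and 60.9 and 68.9 CPM in the scr libraries (-1.75, SE 0.12). The related oxidases *Lox* and *Loxl2* thus went in opposite directions.

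Small leucine-rich proteoglycans, which bind collagen fibres and hold growth factors, rose in 12 of 13 genes and fell in 1 (*Nyx*), with a median log2 fold change of 4.25. *Bgn* (biglycan) was at 2169 and 2234 CPM in the KD and 263 and 285 CPM in the scr libraries (3.004, SE 0.10, edgeR adjusted p = 1.71e-10). *Dcn* (decorin) was at 24.5 and 25.6 CPM in the KD and 2.30 and 1.63 CPM in the scr libraries (3.70, SE 0.21). *Fmod* (fibromodulin) had 2377 counts in the KD libraries against 3 in the scr libraries, a ratio of 627 (95% counting interval 214 to 3040.2). *Prelp* had 2260 against 1, a ratio of 1787 (320.4 to 70616). Both were thus near 0 in scr cells, and such ratios carry wide intervals. Matricellular and elastic fibre genes rose in 22 of 28 and fell in 4, or 20 and 7 after adjustment for GC content and length. *Sparc*, a collagen-binding glycoprotein, was at 3405 and 2970.0 CPM in the KD and 1487 and 1583 CPM in the scr libraries (1.05, SE 0.10). *Fbln5*, which assembles elastic fibres, was at 162 and 153 CPM in the KD and 5.85 and 7.32 CPM in the scr libraries (4.57, SE 0.13). *Ccn5*, a secreted inhibitor of smooth muscle growth, was at 23.2 and 22.2 CPM in the KD and 0.187 and 0.181 CPM in the scr libraries (6.91, SE 0.47). The 4 falls were *Fn1*, *Tnc*, *Ltbp4* and *Fbln1*. *Fn1* (fibronectin), the adhesive glycoprotein on which cells spread, was at 8451 and 8781 CPM in the KD and 17646 and 18678 CPM in the scr libraries (-1.08, SE 0.10). *Tnc* (tenascin C) was at 867 and 892 CPM in the KD and 1294 and 1405 CPM in the scr libraries (-0.62, SE 0.10). *Postn* (periostin) was at 182 and 199.7 CPM in the KD and 133 and 94.4 CPM in the scr libraries (0.75, SE 0.14), but its log2 fold change was -0.20 after adjustment for GC content and length, so no direction is given for it.

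The same was seen for the proteases that remodel the matrix, with 17 of 24 genes up and 5 down. *Mmp2*, a gelatinase, was at 354 and 331 CPM in the KD and 24.7 and 26.9 CPM in the scr libraries (3.73, SE 0.11, edgeR adjusted p = 6.86e-11). Its membrane activator *Mmp14* was at 703 and 615 CPM in the KD and 246 and 269 CPM in the scr libraries (1.35, SE 0.11). All 3 tissue inhibitors named here rose with them. *Timp3*, which stays bound to the matrix, was at 715 and 724 CPM in the KD and 73.3 and 68.5 CPM in the scr libraries (3.34, SE 0.10). *Timp2* was at 1985 and 1800.4 CPM in the KD and 743 and 825 CPM in the scr libraries (1.27, SE 0.10). *Timp1* was at 184 and 189.9 CPM in the KD and 85.8 and 100.4 CPM in the scr libraries (1.00, SE 0.11). *Adam12*, a protease made by regenerating muscle, was at 75.3 and 74.6 CPM in the KD and 5.29 and 4.70 CPM in the scr libraries (3.91, SE 0.13).

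The stromelysin *Mmp10* and the macrophage elastase *Mmp12* were the largest falls of the list. *Mmp10* was at 0.151 and 0 CPM in the KD and 30.4 and 34.9 CPM in the scr libraries (-8.53, SE 0.78). *Mmp12* had 1 count in the KD libraries against 922 in the scr libraries, a ratio of 1166 (95% counting interval 209 to 46104). *Mmp15* was at 30.6 and 25.5 CPM in the KD and 147 and 166 CPM in the scr libraries (-2.48, SE 0.12), and the urokinase *Plau* and its receptor *Plaur* completed the falling members. The promoters of *Mmp10* and *Mmp12* are shown because these genes sit in a cluster of matrix protease genes on chromosome 9 and fell together. Windows run from 250 bases before to 50 bases after the RefSeq start (GRCm38.p6, plus strand), and capitals mark TGANTCA, the letters of the AP-1 element, searched on both strands.
Mmp10, chr9:7502092-7502391: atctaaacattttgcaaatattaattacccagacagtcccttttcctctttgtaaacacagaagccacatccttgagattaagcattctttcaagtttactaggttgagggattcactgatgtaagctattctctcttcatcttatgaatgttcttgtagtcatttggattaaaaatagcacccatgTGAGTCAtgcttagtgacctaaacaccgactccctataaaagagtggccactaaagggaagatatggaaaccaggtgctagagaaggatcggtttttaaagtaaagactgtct
Mmp12, chr9:7347124-7347423: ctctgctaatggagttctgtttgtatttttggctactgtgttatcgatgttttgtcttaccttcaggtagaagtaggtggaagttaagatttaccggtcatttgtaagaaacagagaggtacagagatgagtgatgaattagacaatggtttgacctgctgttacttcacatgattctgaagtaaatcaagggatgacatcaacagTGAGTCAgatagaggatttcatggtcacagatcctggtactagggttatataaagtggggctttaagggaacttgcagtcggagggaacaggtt
The second listed start of *Mmp12* is shown, since the first, at chr9:7344147-7344446, held 0 matches. TGANTCA stood in 3 of 4 falling and 1 of 11 rising genes of the list with a promoter window, and in 7.81% of all 32851 windows. Over all genes tested it stood in 7.15% of the higher, 7.09% of the lower and 5.21% of the other genes. These are matches of letters, and binding was not measured here.

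Receptors that hold cells to the matrix moved in both directions. Of 17 integrin genes 10 rose and 6 fell. The collagen receptor subunit *Itga11* was at 72.3 and 73.9 CPM in the KD and 0.187 and 0.181 CPM in the scr libraries (8.59, SE 0.45). *Itga1*, another collagen receptor, was at 7.61 and 7.86 CPM in the KD and 0.311 and 0.136 CPM in the scr libraries (5.16, SE 0.50). *Itga7*, the laminin receptor of myoblasts and muscle fibres, was at 234 and 218 CPM in the KD and 915 and 1071 CPM in the scr libraries (-2.14, SE 0.11, edgeR adjusted p = 6.11e-09). *Itga6*, a second laminin receptor, was at 39.3 and 40.4 CPM in the KD and 89.5 and 83.8 CPM in the scr libraries (-1.12, SE 0.10). *Itgb4*, which pairs with *Itga6* in a laminin receptor, was at 8.22 and 7.31 CPM in the KD and 1.49 and 1.54 CPM in the scr libraries (2.35, SE 0.24). The 2 collagen receptor subunits were thus higher, whereas the laminin receptor subunits went both ways. Among laminins, *Lama4* was at 74.2 and 76.4 CPM in the KD and 0.124 and 0.181 CPM in the scr libraries (8.85, SE 0.49). *Lama1* was at 17.9 and 22 CPM in the KD and 0.249 and 0.136 CPM in the scr libraries (6.72, SE 0.53). Both rose, whereas *Lama5* was at 218 and 229 CPM in the KD and 629 and 681 CPM in the scr libraries (-1.55, SE 0.10). Of 10 laminin genes 5 rose, *Lama2*, *Lamb2* and *Lamb3* being the others, and 2 fell. Cadherins, which join cells to each other, rose in 8 of 14 and fell in 5. The mesenchymal cadherin *Cdh11* was at 92.8 and 101 CPM in the KD and 4.05 and 2.98 CPM in the scr libraries (4.81, SE 0.16). M-cadherin (*Cdh15*), which joins muscle cells, was at 144 and 130.1 CPM in the KD and 407 and 431 CPM in the scr libraries (-1.61, SE 0.10). *Cdh2*, *Cdh3*, *Cdh18* and *Celsr3* fell as well.

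**Figure D2:**
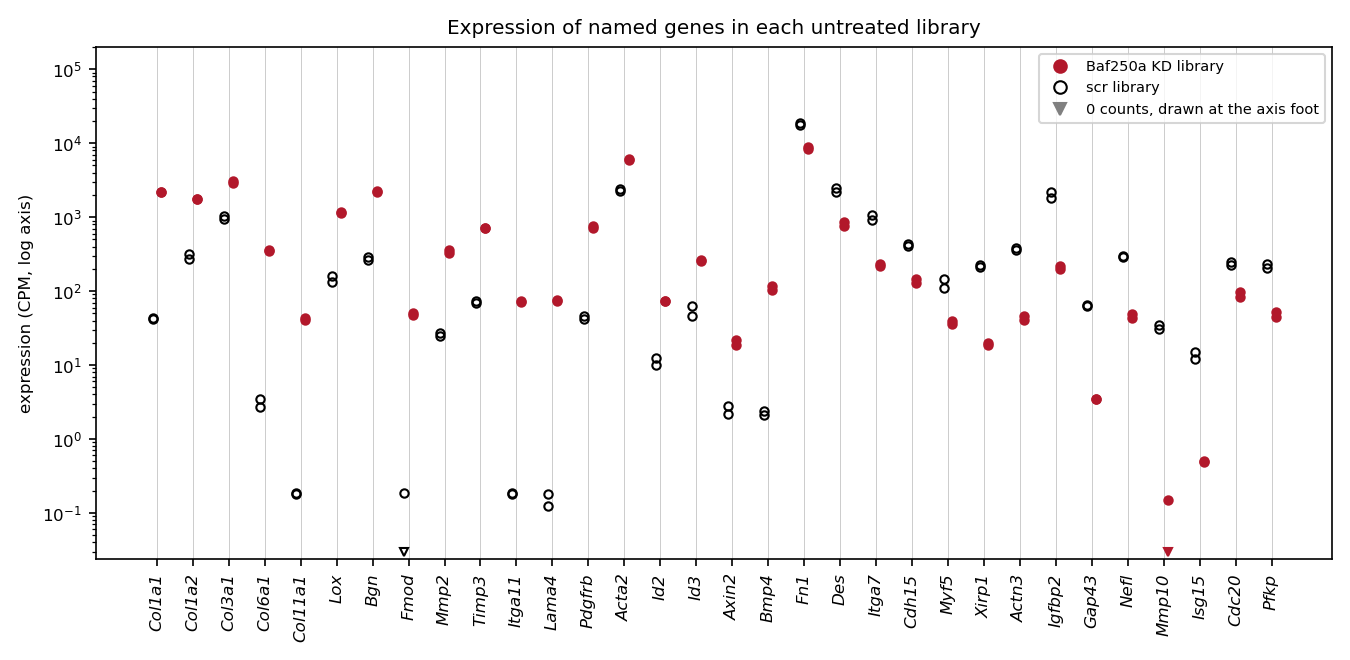
Expression in each of the 4 untreated libraries (y axis, CPM, log scale) for genes named in the text, filled red points for the *Baf250a* KD and open points for the scr libraries; triangles at the foot mark 0 counts. Replicates of a line sit nearly on top of each other, *Col1a1* at 2163 and 2207 CPM in KD and 42.6 and 43 CPM in scr cells and *Gap43* the reverse, at 3.47 and 3.45 and 62.6 and 64.6 CPM.

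Markers of cell types other than myoblasts were examined over whole lists. Of 8 fibroblast markers tested, 8 rose and 0 fell, and their summed level, on the scale of all 24 libraries, was 3436 and 3426 CPM in the KD against 189 and 230 CPM in the scr libraries. *Col1a1*, counted above with the collagens, made up 2221 to 2260 CPM of the KD sum. *Lum* was tested with 16 and 11 counts in the KD and 0 and 0 in the scr libraries. Other members of the list of 12 had too few counts to be tested. *Fap* had 0 and 0 counts in the KD and 7 and 2 in the scr libraries. *Thy1* had 0 and 0 against 1 and 0, and *Dpt* 6 and 4 against 2 and 4. The transcription factor *Tcf21*, also in the list, was at 0 in all 4 libraries. *Pdgfrb*, a growth factor receptor of fibroblasts and pericytes, was at 764 and 715 CPM in the KD and 42.1 and 46.4 CPM in the scr libraries (4.06, SE 0.10). Of 9 smooth muscle markers 7 rose and 2 fell, with a summed level of 7075 and 6999 against 2739 and 2985 CPM. *Acta2*, smooth muscle actin, was at 6029 and 6018 CPM in the KD and 2245 and 2437 CPM in the scr libraries (1.36, SE 0.10). *Cnn1* (calponin) was at 47.8 and 44.8 CPM in the KD and 8.40 and 10.3 CPM in the scr libraries (2.30, SE 0.14). *Smtn* was at 131 and 137 CPM in the KD and 175 and 183 CPM in the scr libraries (-0.41, SE 0.10). *Myocd*, the cofactor that defines smooth muscle, also fell, with only 4 and 2 counts in the KD and 8 and 15 in the scr libraries. Most markers tested in both lists were thus higher. Of the 2 regulators named, *Tcf21* was not detected and *Myocd* was near the floor, so little can be read from them.

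Few adipocyte, cartilage, epithelial, endothelial and leukocyte markers were expressed. Of 3 adipocyte markers tested 2 rose, *Cebpa* and *Lpl*, the latter at 91.6 and 106 CPM in the KD and 7.59 and 6.83 CPM in the scr libraries (3.78, SE 0.13), while *Plin1* and *Lep* were at 0 in all 4 libraries. Their summed level was 138 and 148 in the KD against 27.8 and 26.6 CPM in the scr libraries. Of 6 cartilage and bone markers 5 rose (*Col2a1*, *Sox9*, *Runx2*, *Sp7* and *Dmp1*), with a summed level of 334 and 330.2 against 215 and 212 CPM and with *Ibsp* at 0. The epithelial list summed to 8.32 and 7.86 against 3.95 and 3.11 CPM, with *Krt14*, *Krt19* and *Cdh1* up, *Cldn4* down and *Cldn7* and *Esrp1* at 0. The endothelial list summed to 3.02 and 2.73 against 6.95 and 8.08 CPM, with *Kdr* down, and the leukocyte list to 5.77 and 5.37 against 5.86 and 5.39 CPM, with *Lyz2* up and *Cd68* down. The leukocyte markers *Ptprc*, *Adgre1* and *Tyrobp* and the endothelial markers *Cdh5* and *Erg* were at 0 in all 4 libraries. Of 6 neural and glial markers tested 3 fell and 1 rose (*Stmn2*), or 0 after adjustment for GC content and length, with a summed level of 92.3 and 82.9 against 478 and 503 CPM, and *Snap25*, *Olig2* and *Sox10* at 0. *Nefl*, a neurofilament chain, was at 49.6 and 43.4 CPM in the KD and 286 and 298 CPM in the scr libraries (-2.65, SE 0.11). *Gap43*, a growth cone protein, was at 3.47 and 3.45 CPM in the KD and 62.6 and 64.6 CPM in the scr libraries (-4.20, SE 0.14). *Tubb3* was at 12.5 and 9.88 CPM in the KD and 100.3 and 110.4 CPM in the scr libraries (-3.23, SE 0.13). In bulk RNA fewer cells of a type and less RNA per cell cannot be told apart, and the part of other cell types in these differences was not tested.

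Myoblast identity genes did not move together. *Myod1*, the transcription factor that commits cells to muscle, was at 149 and 132 CPM in the KD and 108 and 112 CPM in the scr libraries (0.35, SE 0.11, edgeR adjusted p = 0.0128), and it was at 67.6 to 153 CPM over all 24 libraries on their common scale. *Myf5*, a related factor of early myoblasts, was at 36 and 38.9 CPM in the KD and 145 and 111 CPM in the scr libraries (-1.77, SE 0.13). *Pax7*, the stem cell factor, was at 0.904 and 0.368 CPM in the KD and 1.49 and 1.54 CPM in the scr libraries (-1.21, SE 0.45). *Myog*, which starts differentiation, was at 10.6 and 8.09 CPM in the KD and 6.91 and 5.83 CPM in the scr libraries (0.57, SE 0.19). *Myod1* and *Myog* were thus slightly higher and *Myf5* and *Pax7* lower in both KD libraries. *Mef2a*, a partner of these factors, was at 185 and 201 CPM in the KD and 108 and 82.5 CPM in the scr libraries (1.02, SE 0.13). In all 10 of 15 myogenic transcription factor genes rose and 4 fell, *Tcf3*, the E protein partner of MyoD, among them. Musculin (*Msc*), a repressor in the same list, was at 1.36 and 0.414 CPM in the KD and 12.3 and 13 CPM in the scr libraries (-3.77, SE 0.35). Inhibitors of myogenic factors rose in 6 of 9 genes and fell in 1 (*Hey1*, given with the Notch genes). *Id1*, *Id2* and *Id3* encode proteins that bind E proteins and keep them from MyoD. *Id1* was at 69.4 and 69.5 CPM in the KD and 17.8 and 21.9 CPM in the scr libraries (1.80, SE 0.12). *Id2* was at 73.9 and 73.1 CPM in the KD and 12.5 and 10.04 CPM in the scr libraries (2.71, SE 0.13). *Id3* was at 267 and 256 CPM in the KD and 46.2 and 61.9 CPM in the scr libraries (2.27, SE 0.13).

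Sarcomere, contraction and fusion genes fell in 17 of 42 and rose in 10, with a median of -0.25. *Des* (desmin), the intermediate filament of muscle, was at 847 and 759 CPM in the KD and 2169.7 and 2452 CPM in the scr libraries (-1.52, SE 0.11, edgeR adjusted p = 1.15e-07). *Actn3*, an actin crosslinker of fast fibres, was at 45.6 and 40.9 CPM in the KD and 356 and 388 CPM in the scr libraries (-3.10, SE 0.11). *Xirp1* and *Xirp2* encode actin-binding proteins of striated muscle. *Xirp1* was at 18.4 and 20.2 CPM in the KD and 213 and 228 CPM in the scr libraries (-3.52, SE 0.11). *Xirp2*, which is not in the list, was at 0.452 and 0.736 CPM in the KD and 60.1 and 40.1 CPM in the scr libraries (-6.41, SE 0.37). *Acta1*, skeletal actin, was at 35 and 31.3 CPM in the KD and 58.7 and 61.6 CPM in the scr libraries (-0.86, SE 0.11). These genes were lower in both KD libraries. *Neb* (nebulin) was at 10.6 and 15.5 CPM in the KD and 3.98 and 3.35 CPM in the scr libraries (1.83, SE 0.22). The slow myosin *Myh7* was at 5.28 and 5.61 CPM in the KD and 0.249 and 0.0904 CPM in the scr libraries (5.05, SE 0.59). Both were higher, at low levels.

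Wnt signals, which guide muscle stem cells and fibroblasts through beta-catenin, were represented by 43 genes, of which 37 rose and 3 fell (median 1.71). *Axin2*, a direct target and feedback inhibitor of the pathway, was at 21.9 and 18.6 CPM in the KD and 2.80 and 2.17 CPM in the scr libraries (3.04, SE 0.20, edgeR adjusted p = 4.00e-08). The inhibitor *Nkd2* was at 37.5 and 34.7 CPM in the KD and 0.187 and 0.181 CPM in the scr libraries (7.58, SE 0.47), and the receptor *Lgr5* had 249 counts in the KD against 1 in the scr libraries, a ratio of 197 (95% counting interval 35 to 7808). Ligands were divided. *Wnt4* was at 20.05 and 21.7 CPM in the KD and 10.7 and 14.2 CPM in the scr libraries (0.74, SE 0.16). *Wnt7b* was at 2.94 and 2.30 CPM in the KD and 16.1 and 18.3 CPM in the scr libraries (-2.71, SE 0.19). The receptor *Ror1*, which binds Wnt5a, was at 1.77 and 1.84 CPM in the KD and 4.48 and 3.80 CPM in the scr libraries (-1.19, SE 0.26). It fell, as did *Wnt5b*.

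Bone morphogenetic protein (BMP) genes rose in 14 of 18 and fell in 3 (median 2.04). The ligand *Bmp4* was at 117 and 102 CPM in the KD and 2.43 and 2.08 CPM in the scr libraries (5.61, SE 0.17). Its receptor *Bmpr1a* was at 136 and 147 CPM in the KD and 70.9 and 56.2 CPM in the scr libraries (1.16, SE 0.12). The inhibitory target *Smad6* was at 42.5 and 32 CPM in the KD and 2.18 and 2.71 CPM in the scr libraries (3.91, SE 0.21). These were higher in both KD libraries. *Nog* (noggin), a secreted BMP antagonist, was at 2.07 and 1.75 CPM in the KD and 10.9 and 10.4 CPM in the scr libraries (-2.47, SE 0.21). The transducer *Smad1* was at 62.4 and 62.3 CPM in the KD and 74 and 74.9 CPM in the scr libraries (-0.26, SE 0.10), with *Msx2* as the other fall. Another secreted antagonist, *Chrdl1*, was the largest rise of the list, with 1192 counts in the KD libraries against 2 in the scr libraries, a ratio of 471 (95% counting interval 130.2 to 3896). These 2 antagonists of BMP thus went in opposite directions. TGF-beta genes, the matrix-inducing branch of the family, rose in 19 of 28 and fell in 2 (*Tgif1* and *Gdf15*), or 18 and 6 after adjustment for GC content and length. The ligand *Tgfb3* was at 417 and 377 CPM in the KD and 76.9 and 76.7 CPM in the scr libraries (2.37, SE 0.10). The receptor *Tgfbr2* was at 407 and 413 CPM in the KD and 124 and 130.2 CPM in the scr libraries (1.69, SE 0.10).

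Insulin-like growth factors (IGF) drive growth and differentiation of muscle cells. In their list, which also holds receptors, binding proteins and Igf2bp genes, 10 of 16 genes rose and 4 fell. *Igf1* was at 31.8 and 34.7 CPM in the KD and 0.0622 and 0.271 CPM in the scr libraries (7.46, SE 0.53). *Igfbp3* was at 20.3 and 18.8 CPM in the KD and 0 and 0.181 CPM in the scr libraries (7.47, SE 0.76). *Igfbp2*, an abundant binding protein of proliferating myoblasts, was at 215 and 199 CPM in the KD and 1789 and 2187 CPM in the scr libraries (-3.26, SE 0.11). The other falls were *Insr*, *Igf2bp2* and *Igf2bp3*. The last pair encode RNA-binding proteins, not binding proteins of IGF, and are counted again with the oncofetal genes. Of 26 fibroblast growth factor genes 13 rose and 7 fell. *Fgf2* was at 42.2 and 45 CPM in the KD and 2.43 and 1.36 CPM in the scr libraries (4.57, SE 0.22). *Fgf5* was at 0.867 and 1.24 CPM in the KD and 6.66 and 6.24 CPM in the scr libraries (-2.62, SE 0.28). The targets of FGF signals *Dusp4*, a phosphatase, and *Etv4*, a transcription factor, were lower. *Dusp4* was at 94.1 and 91.7 CPM in the KD and 217 and 243 CPM in the scr libraries (-1.31, SE 0.10). *Etv4* was at 22 and 21.6 CPM in the KD and 41.5 and 46.1 CPM in the scr libraries (-1.01, SE 0.12). *Igf1* and *Igfbp3* were near 0 in scr cells, where *Igfbp2* was abundant. *Hgf*, the factor that activates muscle stem cells, was at 34.3 and 33.9 CPM in the KD and 1.99 and 1.54 CPM in the scr libraries (4.29, SE 0.20).

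Notch genes, through which neighbouring cells hold each other in the progenitor state, rose in 11 of 20 and fell in 3. *Notch3* was at 132 and 127 CPM in the KD and 58.1 and 63.7 CPM in the scr libraries (1.08, SE 0.11). The ligand *Jag2* was at 36.8 and 33.9 CPM in the KD and 77.9 and 92.8 CPM in the scr libraries (-1.27, SE 0.12). The target *Hey1* was at 5.58 and 3.91 CPM in the KD and 25.2 and 29.3 CPM in the scr libraries (-2.51, SE 0.18), its relative *Hey2* falling too. Of 10 Hedgehog genes 5 rose (*Gli2*, *Boc*, *Cdon*, *Gas1* and, before adjustment for GC content and length, *Ptch1*) and 2 fell (*Gli1* and *Hhip*). *Hhip*, which binds and sequesters Hedgehog ligands, was at 1.58 and 1.38 CPM in the KD and 35.7 and 27.2 CPM in the scr libraries (-4.39, SE 0.22). The coreceptor *Gas1* was at 336 and 332 CPM in the KD and 66 and 73.4 CPM in the scr libraries (2.26, SE 0.10). Genes of YAP and TEAD, which respond to cell shape and stiffness, rose in 16 of 25 and fell in 3 (*Ccn2*, *Ankrd1* and *Tead2*). A pair of well-known targets went apart. *Ccn1* was at 619 and 749 CPM in the KD and 394 and 438 CPM in the scr libraries (0.72, SE 0.11). *Ccn2* was at 402 and 539 CPM in the KD and 678 and 785 CPM in the scr libraries (-0.64, SE 0.13). Semaphorins, ephrins and other guidance genes rose in 25 of 51 (49%) and fell in 15 (29.4%), against 28.9% of all genes in each direction. *Unc5c*, a netrin receptor, was at 83.4 and 90.5 CPM in the KD and 1.12 and 0.362 CPM in the scr libraries (6.97, SE 0.34). *Robo2*, a Slit receptor, was at 37.2 and 37.1 CPM in the KD and 2.86 and 3.07 CPM in the scr libraries (3.64, SE 0.16). *Sema6a* was at 52.1 and 56.8 CPM in the KD and 273 and 247 CPM in the scr libraries (-2.26, SE 0.11).

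AP-1 and other immediate early genes, switched on within minutes of a growth signal, rose in 16 of 29 and fell in 8. *Egr2* was at 16.2 and 22.7 CPM in the KD and 0.747 and 0.497 CPM in the scr libraries (4.99, SE 0.35). *Klf4* was at 86.8 and 72.1 CPM in the KD and 17.5 and 13.6 CPM in the scr libraries (2.36, SE 0.14). *Jund*, *Jun* and *Atf3* were lower. *Jund* was at 120.0 and 115 CPM in the KD and 315 and 391 CPM in the scr libraries (-1.59, SE 0.12). *Jun* was at 169 and 166 CPM in the KD and 274 and 281 CPM in the scr libraries (-0.73, SE 0.10). The stress factor *Atf3* was at 5.54 and 5.01 CPM in the KD and 68.5 and 73.5 CPM in the scr libraries (-3.75, SE 0.13). *Fosl1* was at 66.7 and 63.1 CPM in the KD and 82.1 and 77.7 CPM in the scr libraries (-0.30, SE 0.10). *Fos* was at 4.22 and 5.01 CPM in the KD and 1.74 and 1.31 CPM in the scr libraries (1.61, SE 0.28). *Fosl2* was at 459 and 501 CPM in the KD and 381 and 413 CPM in the scr libraries (0.28, SE 0.10). AP-1 subunits thus went both ways, with *Jund*, *Jun* and *Fosl1* lower and *Fos* and *Fosl2* higher, and neither *Fosl1* nor *Fosl2* passed after adjustment for GC content and length. Cytokine, chemokine and NF-kB genes rose in 16 of 24 and fell in 4 (median 1.73). *Cxcl12*, which attracts muscle stem cells, was at 269.8 and 273 CPM in the KD and 18.6 and 18.9 CPM in the scr libraries (3.85, SE 0.11). *Ccl2* was at 15.7 and 17 CPM in the KD and 4.42 and 3.39 CPM in the scr libraries (2.08, SE 0.18). The inhibitor of NF-kB *Tnfaip3* was at 19.6 and 25.3 CPM in the KD and 62.5 and 59.5 CPM in the scr libraries (-1.45, SE 0.13), and *Ccl5*, *Cxcl10* and *Rela* were the other falls.

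Interferon-stimulated and RNA-sensing genes went both ways, 13 of 39 rising (33.3%) and 15 falling (38.5%), with a median of -0.02. Over all genes 28.9% went in each direction. *Isg15*, a ubiquitin-like protein induced by interferon, was at 0.490 and 0.506 CPM in the KD and 12 and 14.9 CPM in the scr libraries (-4.74, SE 0.31, edgeR adjusted p = 9.46e-09). *Ifit1*, which binds viral RNA, was at 1.62 and 1.75 CPM in the KD and 20.2 and 15.6 CPM in the scr libraries (-3.40, SE 0.22). Both were many times lower in the KD libraries. The sensor *Ifih1* was at 1.88 and 2.11 CPM in the KD and 9.52 and 6.92 CPM in the scr libraries (-2.03, SE 0.24). The chemokine *Cxcl10*, which interferon induces and which is counted in the cytokine list, was at 0.188 and 0.138 CPM in the KD and 6.29 and 5.52 CPM in the scr libraries (-5.10, SE 0.50). The peptide transporters of antigen presentation, *Tap1* and *Tap2*, were instead higher. *Tap1* was at 6.78 and 7.45 CPM in the KD and 0.747 and 0.949 CPM in the scr libraries (3.04, SE 0.29). *Tap2* was at 14.8 and 12.1 CPM in the KD and 1.81 and 2.12 CPM in the scr libraries (2.76, SE 0.22). Promoters of the first 2 genes are shown (RefSeq, GRCm38.p6, same window), with capitals on GAAA and a second GAAA after any 2 bases, a core of the interferon-stimulated response element, searched on both strands. *Isg15* lies on the minus strand and *Ifit1* on the plus strand.
Isg15, chr4:156200769-156201068: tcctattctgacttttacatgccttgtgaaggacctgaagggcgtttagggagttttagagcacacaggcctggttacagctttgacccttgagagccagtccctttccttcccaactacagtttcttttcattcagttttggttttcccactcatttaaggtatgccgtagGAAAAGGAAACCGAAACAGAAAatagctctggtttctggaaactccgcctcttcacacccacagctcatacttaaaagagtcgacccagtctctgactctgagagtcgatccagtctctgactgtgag
Ifit1, chr19:34640639-34640938: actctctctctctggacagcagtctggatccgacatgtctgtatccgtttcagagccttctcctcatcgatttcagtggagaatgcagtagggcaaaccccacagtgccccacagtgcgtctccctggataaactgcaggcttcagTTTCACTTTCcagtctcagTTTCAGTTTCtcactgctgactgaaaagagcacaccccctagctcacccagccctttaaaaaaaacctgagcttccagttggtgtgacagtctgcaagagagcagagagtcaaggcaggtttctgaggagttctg
The *Isg15* window held 3 overlapping matches and the *Ifit1* window 2. Among genes of the list with a window, the letters stood in 5 of 9 that rose, 7 of 12 that fell and 3 of 9 that did not pass, against 3.44% of all windows.

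**Figure D3:**
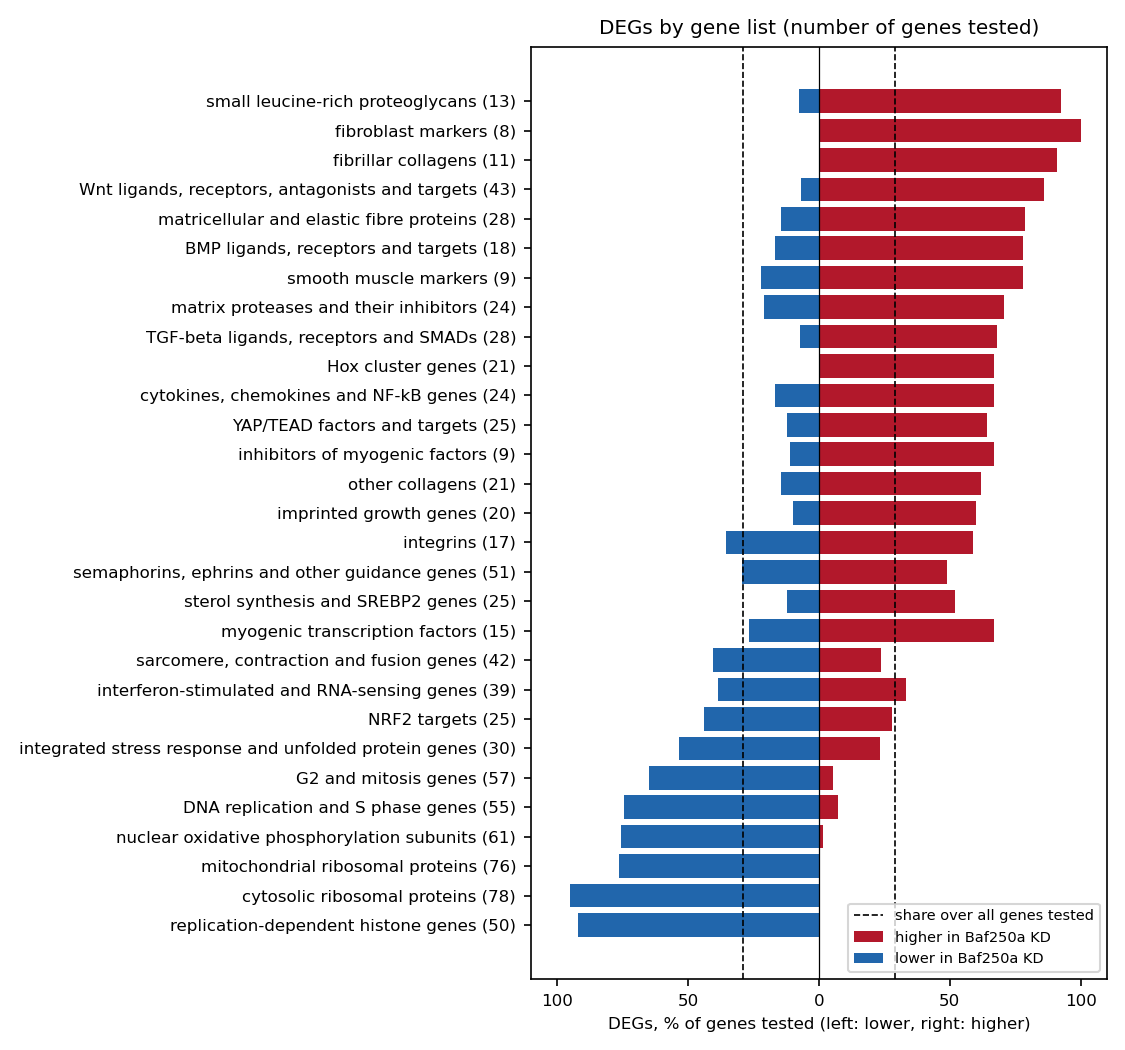
DEGs as a percentage of the genes tested in each list (number in brackets), lower in *Baf250a* KD to the left in blue and higher to the right in red; dashed lines mark the 28.9% found in each direction over all genes tested. Among the lists drawn, proteoglycans, fibroblast markers, fibrillar collagens and Wnt genes extend furthest to the right, and histone and cytosolic ribosomal protein genes furthest to the left.

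Cell cycle genes were lower by small steps. DNA replication and S phase genes fell in 41 of 55 and rose in 4 (*Ccne2*, *Orc6* and *Pola1* among them), with a median of -0.59, and 11 fell when a minimum fold of 1.5 was asked for. *Mcm2*, of the replicative helicase, was at 142 and 137 CPM in the KD and 200.1 and 217 CPM in the scr libraries (-0.59, SE 0.10). *Pold2*, of DNA polymerase delta, was at 36.9 and 31.9 CPM in the KD and 80.9 and 99.7 CPM in the scr libraries (-1.39, SE 0.13). The sliding clamp *Pcna* was at 93.2 and 91.7 CPM in the KD and 111 and 114 CPM in the scr libraries (-0.28, SE 0.10). G2 and mitosis genes fell in 37 of 57 and rose in 3 (*Kif18a*, *Nusap1* and *Ckap2*), with a median of -0.62. When a minimum fold of 1.5 was asked for, 22 fell. That stricter test passes only genes whose change exceeds 1.5-fold beyond its error, so more genes have estimates past 1.5-fold than pass it. *Cdc20*, which activates the anaphase-promoting complex, was at 95.9 and 83.3 CPM in the KD and 225 and 251 CPM in the scr libraries (-1.41, SE 0.11, edgeR adjusted p = 3.77e-07). *Cdk1*, the mitotic kinase, was at 79.7 and 87.9 CPM in the KD and 180.1 and 198 CPM in the scr libraries (-1.17, SE 0.11). *Plk1* was at 57.6 and 53.8 CPM in the KD and 133 and 147 CPM in the scr libraries (-1.33, SE 0.11). *Bub1b* was at 70.8 and 72.1 CPM in the KD and 173 and 183 CPM in the scr libraries (-1.32, SE 0.10). In each of these 7 genes both KD libraries were below both scr libraries. The proliferation marker *Mki67* did not follow them, at 187 and 195 CPM in the KD and 206 and 129.9 CPM in the scr libraries (0.19, SE 0.16), with overlapping groups, and its value turned negative after adjustment for GC content and length. Of the rises named, that of *Orc6* alone passed with the adjustment. With it 49 replication and 51 mitosis genes were lower and 1 and 0 higher.

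Replication-dependent histone genes, whose transcripts lack a poly(A) tail and are made in S phase, fell in 46 of 50 and rose in 0 (median -1.11, or -0.68 with the adjustment). They lie on near-identical copies, so the value of a single gene is uncertain. *H1f1* was at 91.2 and 98.5 CPM in the KD and 257 and 308 CPM in the scr libraries (-1.58, SE 0.11). Cyclin and CDK inhibitor genes went both ways, with 8 of 17 up and 7 down and a median of 0.24 that became -0.17 with the adjustment. *Ccnd1* (cyclin D1) was at 443 and 418 CPM in the KD and 176 and 189 CPM in the scr libraries (1.24, SE 0.10). *Ccne1* (cyclin E1), counted with the replication genes, was at 24.9 and 21 CPM in the KD and 63.5 and 76.1 CPM in the scr libraries (-1.60, SE 0.13). The CDK inhibitor *Cdkn1a*, a target of p53, was at 529 and 481 CPM in the KD and 312 and 387 CPM in the scr libraries (0.53, SE 0.12). The retinoblastoma gene *Rb1* was at 47.3 and 53.6 CPM in the KD and 26.1 and 21.5 CPM in the scr libraries (1.09, SE 0.13). Cyclin D1, *Cdkn1a* and *Rb1* were thus higher in both KD libraries, and cyclin E1 lower. Their relatives went the other way. *Ccnd2* (cyclin D2) was among the falls, and *Ccne2* (cyclin E2) rose, though it did not pass with the adjustment.

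Genes of p53 and its targets rose in 10 of 29 (34.5%) and fell in 14 (48.3%), against 28.9% of all genes in each direction. *Trp53* was at 179 and 168 CPM in the KD and 194 and 223 CPM in the scr libraries and did not pass the test (-0.26, SE 0.11). *Mdm2* was at 112 and 108 CPM in the KD and 163 and 140.0 CPM in the scr libraries (-0.46, SE 0.11). The death receptor *Fas*, a target of p53, was at 15.2 and 16.8 CPM in the KD and 1.18 and 1.09 CPM in the scr libraries (3.82, SE 0.24). Apoptosis regulators rose in 11 of 26 and fell in 7. The BH3 gene *Bmf* was at 11.9 and 10.2 CPM in the KD and 2.30 and 3.53 CPM in the scr libraries (1.90, SE 0.22).

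Ribosomal protein genes fell almost throughout. Of 78 cytosolic ribosomal protein genes 74 fell and 0 rose, with a median of -0.87 (-0.71 with the adjustment for GC content and length). In the test against a minimum fold of 1.5, 45 of them fell. *Rps12* was at 206 and 231 CPM in the KD and 498 and 617 CPM in the scr libraries (-1.35, SE 0.12). *Rpl11* was at 85.9 and 95.2 CPM in the KD and 194 and 280.4 CPM in the scr libraries (-1.39, SE 0.15). Ribosomal protein genes have many processed copies in the genome, and only uniquely mapped reads were counted. Mitochondrial ribosomal proteins fell in 58 of 76 genes and rose in 0 (median -0.55), and 13 fell in the test against a minimum fold of 1.5. *Mrpl38* was at 42.2 and 39.3 CPM in the KD and 88.7 and 96.8 CPM in the scr libraries (-1.19, SE 0.11).

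Nuclear genes of oxidative phosphorylation, the electron transport chain and ATP synthase, fell in 46 of 61 and rose in 1 (median -0.61). In the test against a minimum fold of 1.5, 20 fell. *Atp5b*, the catalytic subunit of ATP synthase, was at 1341 and 1201 CPM in the KD and 2731 and 3211 CPM in the scr libraries (-1.23, SE 0.11, edgeR adjusted p = 1.30e-06). *Cyc1* (cytochrome c1) was at 144 and 132 CPM in the KD and 292 and 382 CPM in the scr libraries (-1.29, SE 0.13). *Cox4i1* was at 178 and 150.4 CPM in the KD and 317 and 418 CPM in the scr libraries (-1.16, SE 0.13). *Uqcrb* was the exception, at 29.96 and 28.5 CPM in the KD and 20.2 and 16.5 CPM in the scr libraries (0.68, SE 0.13). Transcripts of the mitochondrial genome did not follow the nuclear genes: 6 of 12 rose and 3 fell (median 0.51), but 0 rose and 4 fell with the adjustment, so their direction depends on it. *mt-Co1* was at 4928 and 5841 CPM in the KD and 3642 and 3419.6 CPM in the scr libraries (0.61, SE 0.11), and *mt-Nd6* and the ribosomal RNAs *mt-Rnr1* and *mt-Rnr2* were the falls.

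Glycolysis and lactate genes rose in 9 of 30 (30%) and fell in 12 (40%), against 28.9% of all genes in each direction. *Pfkp*, a phosphofructokinase, was at 51.6 and 44.3 CPM in the KD and 204 and 232 CPM in the scr libraries (-2.18, SE 0.12). *Hk2* (hexokinase) was at 182 and 174 CPM in the KD and 309 and 339 CPM in the scr libraries (-0.86, SE 0.10). The glucose carrier *Slc2a1* was at 203 and 187 CPM in the KD and 447 and 489 CPM in the scr libraries (-1.26, SE 0.10). The pyruvate dehydrogenase kinases, which turn pyruvate away from mitochondria, were higher. *Pdk1* was at 89 and 91.1 CPM in the KD and 30.9 and 32.6 CPM in the scr libraries (1.503, SE 0.11). *Pdk4* was at 105 and 98.6 CPM in the KD and 13.3 and 13 CPM in the scr libraries (2.96, SE 0.11). The glucose carrier and both early enzymes were thus lower, and both kinases higher. Sterol synthesis genes rose in 13 of 25 and fell in 3, or 11 and 6 after adjustment for GC content and length. *Hmgcs1* was at 143 and 139.6 CPM in the KD and 78.9 and 68.4 CPM in the scr libraries (0.94, SE 0.11). *Pmvk*, *Mvd* and *Fdps* fell.

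Genes of metal handling were examined in these cells without added metal. Besides the metallothioneins, DEGs made up 4 of 6 zinc exporter, 4 of 10 zinc importer, 13 of 19 copper and 12 of 19 iron and heme genes, against 57.8% of all genes tested. Metallothioneins, small proteins that bind Zn and Cu, were higher. *Mt1* was at 266 and 255 CPM in the KD and 53.9 and 63.4 CPM in the scr libraries (2.15, SE 0.11, edgeR adjusted p = 7.66e-09). *Mt2* was at 103 and 107 CPM in the KD and 17.7 and 20.2 CPM in the scr libraries (2.46, SE 0.11, edgeR adjusted p = 2.43e-09). Their activator *Mtf1*, the zinc-sensing transcription factor, was at 32.1 and 33.8 CPM in the KD and 49.7 and 47.5 CPM in the scr libraries (-0.56, SE 0.11), lower in both KD libraries. The zinc exporter *Slc30a1*, also a target of MTF1, was at 24.8 and 28.7 CPM in the KD and 10.6 and 11.1 CPM in the scr libraries (1.30, SE 0.14). The lysosomal exporter *Slc30a4* was at 108 and 123 CPM in the KD and 225 and 157 CPM in the scr libraries (-0.72, SE 0.15). Of 6 exporter genes 3 rose (*Slc30a1*, *Slc30a5* and *Slc30a7*) and 1 fell, or 1 and 2 with the adjustment. Of 10 importer genes 2 rose and 2 fell, or 3 and 4 with the adjustment, and their median turned from 0.09 to -0.13. *Slc39a14*, which also carries iron, was at 135 and 132 CPM in the KD and 73.3 and 84.5 CPM in the scr libraries (0.76, SE 0.11). *Slc39a6* was at 123 and 115 CPM in the KD and 205 and 206 CPM in the scr libraries (-0.79, SE 0.10). *Slc39a13* rose as well and *Slc39a7* fell.

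Copper transporters, chaperones and enzymes rose in 6 of 19 and fell in 7. *Atp7a*, the copper pump, was at 53.7 and 55 CPM in the KD and 42.9 and 33.4 CPM in the scr libraries (0.52, SE 0.13), and did not pass with the adjustment. *Cox17*, which carries copper to cytochrome oxidase, was at 11.4 and 11.3 CPM in the KD and 30.7 and 27.5 CPM in the scr libraries (-1.36, SE 0.13). *Sod3*, a secreted copper and zinc dismutase, was at 90.6 and 90.8 CPM in the KD and 15.3 and 16.2 CPM in the scr libraries (2.52, SE 0.11). Iron and heme genes rose in 6 of 19 and fell in 6, with a median of 0.03 that became -0.14 with the adjustment. The iron exporter *Slc40a1* (ferroportin) was at 30.9 and 29.4 CPM in the KD and 16.1 and 14.9 CPM in the scr libraries (0.96, SE 0.13). *Cpox*, of heme synthesis, was at 43.7 and 39.2 CPM in the KD and 111 and 114 CPM in the scr libraries (-1.44, SE 0.11). Targets of NRF2, the factor of oxidative stress, rose in 7 of 25 (28%) and fell in 11 (44%), against 28.9% of all genes in each direction. *Nqo1* was at 64.3 and 62.8 CPM in the KD and 12.3 and 12.9 CPM in the scr libraries (2.33, SE 0.12). *Hmox1* (heme oxygenase), counted with the iron genes, was at 153 and 136 CPM in the KD and 54.3 and 58.3 CPM in the scr libraries (1.36, SE 0.11). Lower members were *Txnrd1*, *Gsta4* and *Slc7a11*. *Txnrd1* was at 272 and 250.2 CPM in the KD and 560.0 and 617 CPM in the scr libraries (-1.17, SE 0.10). *Gsta4* was at 93.4 and 82.9 CPM in the KD and 273 and 267 CPM in the scr libraries (-1.61, SE 0.10). The cystine carrier *Slc7a11* was at 5.35 and 7.31 CPM in the KD and 23.3 and 17.5 CPM in the scr libraries (-1.69, SE 0.19). Well-known targets of NRF2 thus went in opposite directions.

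Of 30 genes of the integrated stress and unfolded protein responses 16 fell and 7 rose. The effectors *Ddit3* (CHOP) and *Trib3* were among the falls. *Ddit3* was at 32.6 and 30.5 CPM in the KD and 85.8 and 81.5 CPM in the scr libraries (-1.40, SE 0.11). *Trib3* was at 16.2 and 16.3 CPM in the KD and 73.7 and 93.6 CPM in the scr libraries (-2.37, SE 0.13). *Atf4*, their activator, was at 367 and 371 CPM in the KD and 496 and 533 CPM in the scr libraries (-0.48, SE 0.10). The chaperone *Hspa5* was at 760.0 and 782 CPM in the KD and 843 and 880.0 CPM in the scr libraries and did not pass the test (-0.16, SE 0.10). Heat shock chaperones fell in 8 of 18 and rose in 3. *Hspb1* was at 104 and 95.2 CPM in the KD and 369 and 396 CPM in the scr libraries (-1.94, SE 0.10). *Hsp90ab1* was at 2409 and 2191 CPM in the KD and 3926 and 4232 CPM in the scr libraries (-0.83, SE 0.10). *Hspa1b* was at 18.7 and 23.1 CPM in the KD and 5.35 and 5.74 CPM in the scr libraries (1.90, SE 0.17). It rose, as did *Dnajb4* and *Hspa4l*, of which the last pair did not pass as higher after adjustment for GC content and length.

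Developmental genes included the Hox clusters, which mark position along the body axis. Of 21 Hox genes tested 14 rose and 0 fell (median 0.93). *Hoxc6* was at 27.9 and 28.2 CPM in the KD and 13.4 and 11.5 CPM in the scr libraries (1.18, SE 0.13). *Hoxa3* was at 3.92 and 5.01 CPM in the KD and 2.05 and 1.58 CPM in the scr libraries (1.31, SE 0.28). Imprinted growth genes, expressed from the allele of a single parent, rose in 12 of 20 and fell in 2, or 11 and 5 after adjustment for GC content and length. *Mest* had 821 counts in the KD libraries and 0 in the scr libraries, which is at least 216-fold higher against a floor of 3 counts over the scr group. *Peg10* was at 503 and 551 CPM in the KD and 97.8 and 93.8 CPM in the scr libraries (2.46, SE 0.10). *Peg3*, which marks muscle stem cells, was at 324 and 331 CPM in the KD and 699.7 and 577 CPM in the scr libraries (-0.96, SE 0.11), its neighbour *Usp29* falling too. The oncofetal genes of the Hmga, Igf2bp and Lin28 families fell in 4 of 6 and rose in 1 (*Igf2bp1*). *Hmga1*, which bends DNA, was at 16.9 and 17.8 CPM in the KD and 49.5 and 59.5 CPM in the scr libraries (-1.65, SE 0.13). *Igf2bp2*, an RNA-binding protein of proliferating myoblasts, was at 48.3 and 46.8 CPM in the KD and 106 and 101 CPM in the scr libraries (-1.13, SE 0.10). *Igf2bp3* was at 4.33 and 3.31 CPM in the KD and 15.8 and 17 CPM in the scr libraries (-2.09, SE 0.18). *Hmga1b*, a near copy of *Hmga1*, was the other fall. *Hmga2* was at 117 and 128 CPM in the KD and 116 and 104 CPM in the scr libraries and did not pass the test (0.15, SE 0.11).

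Some of the largest falls were in RNA that is not translated. All 7 tested genes whose reads overlap ribosomal RNA fell. The most abundant, *CT010467.1*, was at 1083 and 814 CPM in the KD and 47036 and 16799 CPM in the scr libraries (-5.07, SE 0.32), and the 2 scr libraries differed from each other by more than the KD libraries. Small structural RNAs fell in 10 of 12 genes (6 fell and 2 rose with the adjustment), *Rny1*, a Y RNA, being at 15.6 and 31.7 CPM in the KD and 74 and 377 CPM in the scr libraries (-3.26, SE 0.51). The ribosomal genes were higher in scr replicate 1 than in replicate 2, and *Rny1* in replicate 2. Ribosomal genes took 4.81% and 1.72% of counts in untreated scr libraries, but 0.14% and 0.18% with Cu and 0.12% and 0.12% with Zn. The scr excess was thus confined to its untreated libraries. Over those, the log2 median of the ribosomal list was -6.59 here, -6.59 with *Brd9* KD and -2.97 with *Baf180* KD. The small structural RNA list gave -1.82, -1.61 and -1.85. In direct tests 6 ribosomal genes were below *Baf180* KD and 0 below *Brd9* KD. Among gene classes, 44 of 73 small nucleolar RNA genes were lower and 1 was higher. The part of RNA removal in these falls was not tested.

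Outside the lists, *Stmn4*, a regulator of microtubules in neurons, was at 1.70 and 1.75 CPM in the KD and 88.4 and 95.4 CPM in the scr libraries (-5.74, SE 0.16). *Plcg2*, a phospholipase of immune cells, was at 0.829 and 0.460 CPM in the KD and 36 and 38.7 CPM in the scr libraries (-5.81, SE 0.27). *Nap1l2*, a histone chaperone, was at 0.490 and 0.276 CPM in the KD and 21.4 and 14.5 CPM in the scr libraries (-5.49, SE 0.40). These were among the 10 largest falls of genes other than predicted and small RNA genes. The matching rises held *Mest*, *Prelp*, *Fmod*, *Lama4*, *Col2a1* and *Col6a2*, given above, and *Omd*, *Spon2*, *Ncf4* and *Ptgfr*. *Omd*, a proteoglycan of bone, had 696 counts in the KD against 1 in the scr libraries, a ratio of 550.4 (95% counting interval 98.5 to 21768). *Spon2*, a secreted matrix protein, had 1825 against 3, a ratio of 481 (164 to 2335). *Ncf4*, a subunit of the leukocyte NADPH oxidase, had 293 against 0, at least 77.2-fold higher against the floor of 3 counts over the scr group. *Ptgfr*, a prostaglandin receptor, had 696 counts in the KD against 1 in the scr libraries, a ratio of 550.4 (95% counting interval 98.5 to 21768).

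To see which differences went with *Baf250a* rather than with any subunit knockdown, untreated *Baf250a* KD cells were tested directly against the untreated *Baf180* KD and *Brd9* KD lines, which were made and grown in the same way. Over 15718 genes, 4209 (26.8%) differed from *Baf180* KD cells, 2141 higher (13.6%) and 2068 lower (13.2%). Against *Brd9* KD cells 6248 (39.8%) differed, 3356 higher (21.4%) and 2892 lower (18.4%), so that 53.7% of them were higher, or 43.3% after adjustment for GC content and length. The count against *Baf180* KD fell to 2451 without *Baf250a* KD replicate 1 and to 2333 without replicate 2. Of the 4327 DEGs above scr 1528 (35.3%) were also above both other KD lines, and of the 4320 below scr 1399 (32.4%) were also below both. Each KD line has its own knockdown depth and selection, so the subunit and the line cannot be told apart.

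Fold changes over scr are given side by side for the 3 lines, and all 3 share the same scr libraries. *Arid1a* itself was at a log2 fold change of -1.53 with *Baf250a* KD, -0.24 with *Baf180* KD and 0.13 with *Brd9* KD. For *Col1a1* the values were 5.67, 3.06 and 0.56, and the difference of *Baf250a* KD from *Baf180* KD was 2.63 (SE 0.10, edgeR adjusted p = 8.13e-10). *Col3a1* was at 1.57, 0.50 and 0.09, and *Timp3* at 3.34, 1.40 and 0.63. These matrix genes were thus highest in *Baf250a* KD cells and exceeded scr by less in *Baf180* KD cells. In the proteoglycan list 11 of 13 genes were above *Baf180* KD and 11 above *Brd9* KD, and among fibrillar collagens 9 of 11 were above each. Wnt genes were above *Baf180* KD in 27 and above *Brd9* KD in 34 of 43.

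Another set of genes was near the scr level in both other lines. *Gap43* was at -4.20 with *Baf250a* KD, 0.02 with *Baf180* KD and -0.43 with *Brd9* KD, a difference from *Baf180* KD of -4.20 (SE 0.13, edgeR adjusted p = 1.21e-10). *Hhip* was at -4.39, 0.18 and 0.56, *Msc* at -3.77, -0.04 and 0.17 and *Igf2bp3* at -2.09, 0.06 and 0.08. *Acta2* was at 1.36, 0.10 and -0.19, a difference from *Brd9* KD of 1.57 (SE 0.12, edgeR adjusted p = 2.36e-07). For these 5 genes the test against each of the other KD lines was passed. Mitosis genes were below *Baf180* KD in 49 and below *Brd9* KD in 54 of 57, and replication genes in 33 and 42 of 55. Nuclear oxidative phosphorylation genes, though lower than in scr cells, were below *Baf180* KD in 5 of 61 and below *Brd9* KD in 7. *Mt1* and *Mt2* passed against *Brd9* KD, where *Mt1* differed by 0.77 (SE 0.12, edgeR adjusted p = 1.97e-04), and *Mt1* did not pass against *Baf180* KD, where it differed by 0.11 (SE 0.12, edgeR adjusted p = 0.568).

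**Figure D4:**
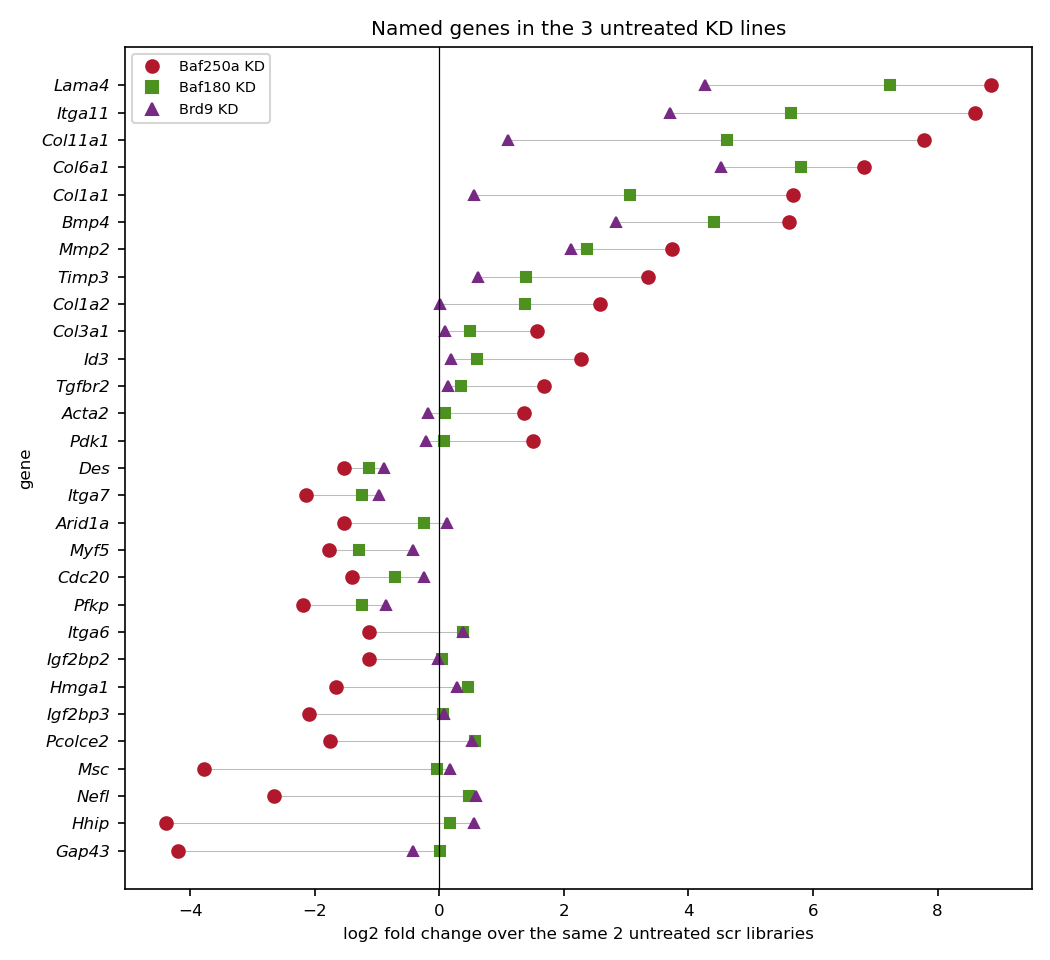
Log2 fold change over the same 2 untreated scr libraries (x axis) for genes named in the text, red circles for *Baf250a* KD, green squares for *Baf180* KD and purple triangles for *Brd9* KD cells. For the matrix genes at the top the order is *Baf250a*, *Baf180*, *Brd9* KD from high to low, whereas *Gap43*, *Hhip*, *Msc* and *Igf2bp3* at the foot moved in *Baf250a* KD and lay near 0 in the other lines.

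The same 2 lines were also sequenced after treatment with Cu or Zn, in libraries that the untreated comparison did not use. With Cu, 8176 of 8392 DEGs that could be measured (97.43%) had the same sign between *Baf250a* KD and scr, and 5504 were called again. With Zn, 5848 of 8228 (71.07%) had the same sign and 4306 were called again. Among the DEGs of at least 2-fold the shares were 98.36% and 83.35%. One of the Zn libraries of *Baf250a* KD had 495778 counts, and without it the Zn share was 71.36%. Per 10 percentage points of GC content, log2 expression changed by -0.07 and -0.20 in the untreated KD and 0.11 and 0.32 in the untreated scr libraries, but 0.14 and 0.28 in the Zn KD and -0.25 and -0.34 in the Zn scr libraries, the opposite order.

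The difference of 4 matrix, muscle and neural genes had the same sign with both metals. *Col1a1* had a log2 fold change of 5.93 with Cu and 6.34 with Zn, *Mmp2* of 3.81 and 3.65, *Itga7* of -2.04 and -1.47 and *Gap43* of -3.90 and -3.42. *Arid1a* was at -1.30 and -1.58. The summed level of the mitosis list was 3922 and 3958 CPM in untreated and 5271 and 4544 CPM in Zn *Baf250a* KD libraries, against 6207 and 5853 and 7403 and 7307 CPM in scr libraries, so it stayed below scr with Zn. Of other lists that were lower in untreated KD cells, some overlapped scr with Zn and some stayed below it. The replication list overlapped, at 4508 and 3797 CPM in the KD and 4245 and 4151 CPM in the scr libraries. Cytosolic ribosomal protein genes did too, at 20926 and 19896 against 22074 and 20707 CPM. Replication-dependent histone genes stayed below, at 3283 and 3856 against 4433 and 3948 CPM. So did mitochondrial ribosomal protein genes, at 2654 and 2405 against 2855 and 2726 CPM, and sarcomere genes, at 4477 and 4246 against 8567 and 9356 CPM. For the mitosis gene *Cdc20* the values lay closer with Zn, and the difference between treatments was not tested. It was at 98.5 and 85.3 CPM in untreated, 91.6 and 97 in Cu and 164 and 177 in Zn *Baf250a* KD libraries, on the scale of all 24 libraries, against 229.9 and 258, 203 and 187 and 197 and 182 CPM in scr libraries. Its log2 fold change was -1.02 with Cu and -0.20 with Zn. *Mt1* differed by 2.16 with Cu and 0.86 with Zn, *Mt1* in scr cells being at 87.6 and 61.7 CPM with Cu.

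**Figure D5:**
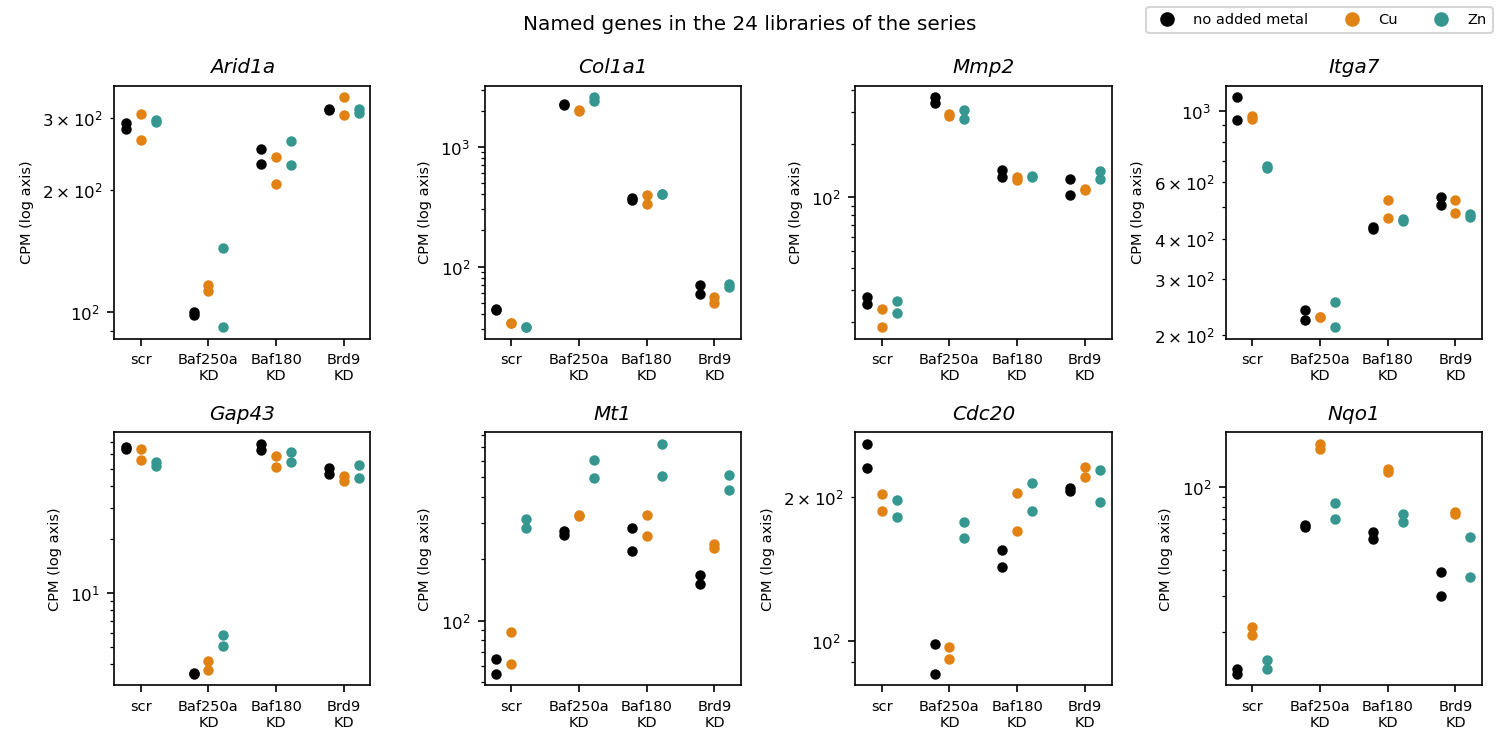
CPM (y axes, log scale, TMM over 24 libraries) of genes named in the text in every library, by line along the x axis and by treatment in colour (black without metal, orange Cu, teal Zn). *Arid1a* is lowest in the 6 *Baf250a* KD libraries, *Col1a1* and *Mmp2* are highest and *Itga7* and *Gap43* lowest there whatever the treatment, while *Cdc20* is lower in *Baf250a* KD without metal and with Cu, at 98.5 and 85.3 and 91.6 and 97 CPM, than with Zn, at 164 and 177 CPM.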

How the data were processed

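RNA was extracted from frozen pellets of the untreated *Baf250a* KD and scr lines, ribosomal RNA was digested with RNase H, and strand-specific libraries were sequenced. The authors aligned reads to mm10 with STAR, kept unique mappers and obtained read pair counts with featureCounts on the reverse strand. The counts they deposited are whole numbers, not normalized, for 55291 gene symbols. They also deposited their DESeq2 comparisons (log2 fold changes, p-values), not used here. Groups came from titles, because a treatment tag contradicts them.

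All values were computed in R 4.3.3 from the counts of the untreated libraries (16520069 to 25700122 per library), whose depth limits precision for low genes. The main test was the edgeR 4.0.16 quasi-likelihood test with TMM normalization and filterByExpr, on 4 libraries, or on the 8 untreated libraries for differences between KD lines, with a Benjamini-Hochberg adjusted p under 0.05. Log2 fold changes are *Baf250a* KD minus scr, as fitted by edgeR. A prior count of 2 was used only for log2 CPM values, such as those behind the GC content offsets and slopes. In brackets after values in CPM stand the log2 fold change and its SE. In simulated counts of this comparison over 14971 genes, 17.5%, 76.0% and 97.5% of 200 genes changed by 0.5, 1 and 2 on the log2 scale were called. The other genes were left unchanged there, whereas 57.8% of genes were DEGs in the data. The adjusted p was therefore harder to pass in the simulation, and these shares do not give the sensitivity of the real comparison.

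Gene lists (61) and members were chosen with earlier results of these data known. Genes were named by rule: key genes of each list, up to 3 largest rises and falls per list and the 10 largest in all, among genes averaging 50 or more normalized counts whose groups do not overlap. The text gives part of them, and some short counts are completed with *Bcl7a*, *Bcl7c*, *Col23a1*, *Nyx*, *Fbln1*, *Plau*, *Plaur*, *Lamb2*, *Lamb3*, *Cdh3*, *Celsr3*, *Myocd*, *Sp7*, *Dmp1*, *Krt14*, *Krt19*, *Cdh1*, *Cldn4*, *Lyz2*, *Wnt5b*, *Msx2*, *Insr*, *Hey2*, *Gli2*, *Ccl5*, *Hmga1b* and *Igf2bp1*, chosen after their values were seen. Some genes are not reported here. Folds against 0 counts use a floor of 3 counts over the group, and intervals cover counting error at 95%. GC content, length and shRNA sites came from GENCODE M21 (GRCm38), which matched 53696 symbols (97.1%). Alternatives were DESeq2 1.42.0, RLE factors, other count filters, other libraries in the fit, a minimum fold of 1.5, thinned counts, a replicate block, offsets for GC content and length (spline, 5 degrees of freedom), protein-coding library sizes and leaving out each library.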

Additional observations from a re-analysis of the deposited data

Results flagged for a closer look

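The *Baf250a* KD line differed from the other KD lines by a direct test of the difference, and these counts are given because the lines share a control. They were 4209 genes against *Baf180* KD and 6248 against *Brd9* KD cells. Of the DEGs above scr 1528 also lay above both other lines, and of the DEGs below scr 1399 also lay below both.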

How the results depend on the processing

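The count of 8647 DEGs ran from 7207 (DESeq2) to 9161 (replicate block with offsets for GC content and length) under the other tests, filters, scalings and sets of libraries, and was 3828 with a minimum fold change of 1.5. It ran from 5846 to 9635 when 1 library was left out, the lowest without *Baf250a* KD replicate 2. *Arid1a* stayed a DEG throughout, from -1.56 to -1.52 on the log2 scale without 1 library and -1.76 with the offsets. Against *Baf180* KD the 4209 genes became 936 and against *Brd9* KD the 6248 became 2001 when a fold of 1.5 was required. Leaving out 1 library gave 2333 to 2876 and 4392 to 5049. The lowest counts against *Baf180* KD came without *Baf250a* KD replicate 2 (2333) and replicate 1 (2451).

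The share of DEGs of the same sign with Cu (97.43%) was 98.1% with DESeq2, 95.75% with all genes of at least 1 count, 96.37% with a mean of at least 1, 99.21% with a minimum fold change of 1.5 and 98.6% with the offsets. With Zn (71.07%) it was 76.01%, 72.68%, 73.09%, 84.29% and 78.61% in that order, and 72.26% with RLE factors. The cause of these shifts was not tested. Leaving out the shallow Zn library, an alternative chosen after seeing the data, gave 71.36%.

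Genes that changed sign did so with the offsets for GC content and length, alone and with the replicate block: *Arid1b* (-0.073 and -0.072), *Arid2* (-0.10 and -0.10), *Hmga2* (-0.045 and -0.045), *Hspa4l* (-0.33 and -0.34), *Kif18a* (-0.17 and -0.17), *Mki67* (-0.22 and -0.20), *Pola1* (-0.069 and -0.068), *Postn* (-0.20 and -0.20) and *Slc30a5* (-0.089 and -0.088). *Mki67* ran from -0.12 (without scr replicate 2) to 0.55 (without scr replicate 1). Of the other genes named, 14 lost their call with the offsets (*Atp7a*, *Bicral*, *Brd9*, *Ccne2*, *Ckap2*, *Dnajb4*, *Fosl1*, *Fosl2*, *Nusap1*, *Pbrm1*, *Ptch1*, *Slc30a7*, *Stmn2* and *mt-Co1*), 21 with DESeq2, 66 with a minimum fold change of 1.5, and 33 and 36 without *Baf250a* KD replicate 1 or 2.

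The deviations of the replicate 1 libraries from their group means correlated at -0.03 over 14971 genes. This single value gave no sign that replicate numbers pair the samples, but it cannot exclude a pairing. With the replicate number as a block 8154 genes were DEGs against scr, 3929 against *Baf180* KD and 6045 against *Brd9* KD. Depth limits the genes of few counts, whose ratios carry wide intervals. The p-values rest on 2 libraries a side.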
